A study of Homo sapiens with 4 samples.

Results

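SREBF1 and the enzymes that make, elongate and desaturate fatty acids were examined in NB4-R4 cells, an acute promyelocytic leukaemia line described as resistant to all-trans retinoic acid. The genes were chosen by name, as 10 symbols, and the array annotation paired exactly 1 feature with each of 9 of them. FADS1, the delta-5 desaturase gene, had no such feature and was not analysed here, so 9 of the 17687 genes tested are described. Cells given MK-8776, an inhibitor of the checkpoint kinase CHK1, at 4 µM for 96 h were compared with cells given the vehicle DMSO for the same time, on 2 arrays per group. All 4 arrays come from this 1 resistant subclone, with no parental or retinoid-sensitive cells among them, and the cells carried no other treatment that the labels name. Where the annotation held several features of a gene, the rule took the one with the highest mean over the arrays, a choice that no gene here needed. The list was drawn up with earlier results of this contrast known, the fall of SCD among them, so the values below describe these genes and are no independent evidence of a direction.

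Fatty acids are built in the cytosol from acetyl-CoA. ATP citrate lyase and acetyl-CoA synthetase supply that acetyl-CoA, acetyl-CoA carboxylase turns it into malonyl-CoA, and fatty acid synthase joins the units into palmitate. Elongases then lengthen the chain and desaturases place double bonds in it, which sets how fluid membranes are. SREBP-1, the product of SREBF1, is held in the endoplasmic reticulum until SCAP carries it to the Golgi for cleavage, after which it enters the nucleus and activates most of these enzyme genes, its own included. SREBP factors are known to act beside NF-Y, which binds CCAAT boxes, and SP1, which binds GC boxes, and the basic helix-loop-helix domain of SREBP can also bind an E-box. Dividing cells draw on the pathway for new membrane.

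The promoters shown are those of the 3 genes that fell (SREBF1, SCD and FADS2) and of ACLY, the gene with the smallest change. Each line holds the 250 bases before a gene start in the RefSeq promoter table (GRCh38.p14), read 5′ to 3′ on the gene's strand. Capitals mark a CCAAT box (CCAAT or its reverse ATTGG), a GC box (GGGCGG or its reverse CCGCCC) or an E-box (CACGTG).
SREBF1 promoter, chr17:17836987-17837236, minus strand: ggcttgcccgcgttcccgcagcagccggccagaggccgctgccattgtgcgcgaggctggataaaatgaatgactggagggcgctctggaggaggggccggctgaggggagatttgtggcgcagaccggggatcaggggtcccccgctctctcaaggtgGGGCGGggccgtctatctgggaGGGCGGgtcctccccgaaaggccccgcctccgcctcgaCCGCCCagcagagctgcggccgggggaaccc
SCD promoter, chr10:100346983-100347232, plus strand: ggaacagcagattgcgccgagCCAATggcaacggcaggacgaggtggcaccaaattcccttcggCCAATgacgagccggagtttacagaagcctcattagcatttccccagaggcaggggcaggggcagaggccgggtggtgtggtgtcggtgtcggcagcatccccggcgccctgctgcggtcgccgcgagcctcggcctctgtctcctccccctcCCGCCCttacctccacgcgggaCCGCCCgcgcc
FADS2 promoter, chr11:61815953-61816202, plus strand: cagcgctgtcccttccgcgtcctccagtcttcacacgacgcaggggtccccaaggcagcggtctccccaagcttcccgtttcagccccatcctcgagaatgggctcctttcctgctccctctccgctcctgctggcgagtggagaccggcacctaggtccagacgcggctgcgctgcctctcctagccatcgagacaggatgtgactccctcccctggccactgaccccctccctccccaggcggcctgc
ACLY promoter, chr17:41919023-41919272, minus strand: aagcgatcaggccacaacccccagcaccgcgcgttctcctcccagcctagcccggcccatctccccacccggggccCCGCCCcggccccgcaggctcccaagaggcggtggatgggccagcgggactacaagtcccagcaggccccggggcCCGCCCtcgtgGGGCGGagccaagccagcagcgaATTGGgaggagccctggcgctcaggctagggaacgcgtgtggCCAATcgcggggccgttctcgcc

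Of the 9 measured genes, 8 had a promoter in that table, 13 windows in all, since 4 genes have over 1 start. A CCAAT box stood in 7 of the 13 windows, belonging to 5 genes, while 32.0% of all 35116 windows of this length held one. Windows of 1 gene are not independent: the 2 of ACLY overlap and hold the same 2 CCAAT boxes. SCD carried its 2 CCAAT boxes 229 and 186 bases before the start, and the printed ACLY window carried 2 at 65 and 23 bases. SREBF1 and FADS2 had no CCAAT box in these windows, and the printed FADS2 window held none of the motifs. GC boxes were found in 10 of the 13 windows, belonging to 7 genes, against 42.6% of all windows. SREBF1 held 3 of them at 91, 69 and 31 bases. Its only window lies before the outermost start of the gene, so a start further inside it was not searched. The E-box occurred in 1 window, that of ELOVL5 at 211 bases, against 6.34% of all. The core of a sterol regulatory element, spelled TCACNCCAC and searched on both strands, was in 0 of the 13 windows and in 0.883% of all. These are matches of letters within 250 bases, and neither a match nor its absence was set against binding.

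SREBF1, SCD and FADS2 fell after MK-8776, and 4 more of the 9 genes had lower means in MK-8776 that did not pass the test. The largest fall was that of SCD, a 7.7-fold lower level than in DMSO, and SREBF1 stood at 25.8% of its DMSO level. ACLY and ACSS2, the genes of acetyl-CoA supply, had changes near 0. Levels are RMA expression on the log2 scale, changes are log2 fold changes of MK-8776 minus DMSO, and a gene was called at a limma adjusted p under 0.05, with Benjamini-Hochberg adjustment over all 17687 genes. By that rule 3 of the 9 fell and 0 rose, where 3.69% of all genes were called and 2.02% fell. The median change of the 9 genes was -0.75, beside 0.005 over all genes tested. In these bulk samples fewer cells of a type and less RNA per cell cannot be told apart.

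**Figure D1:**
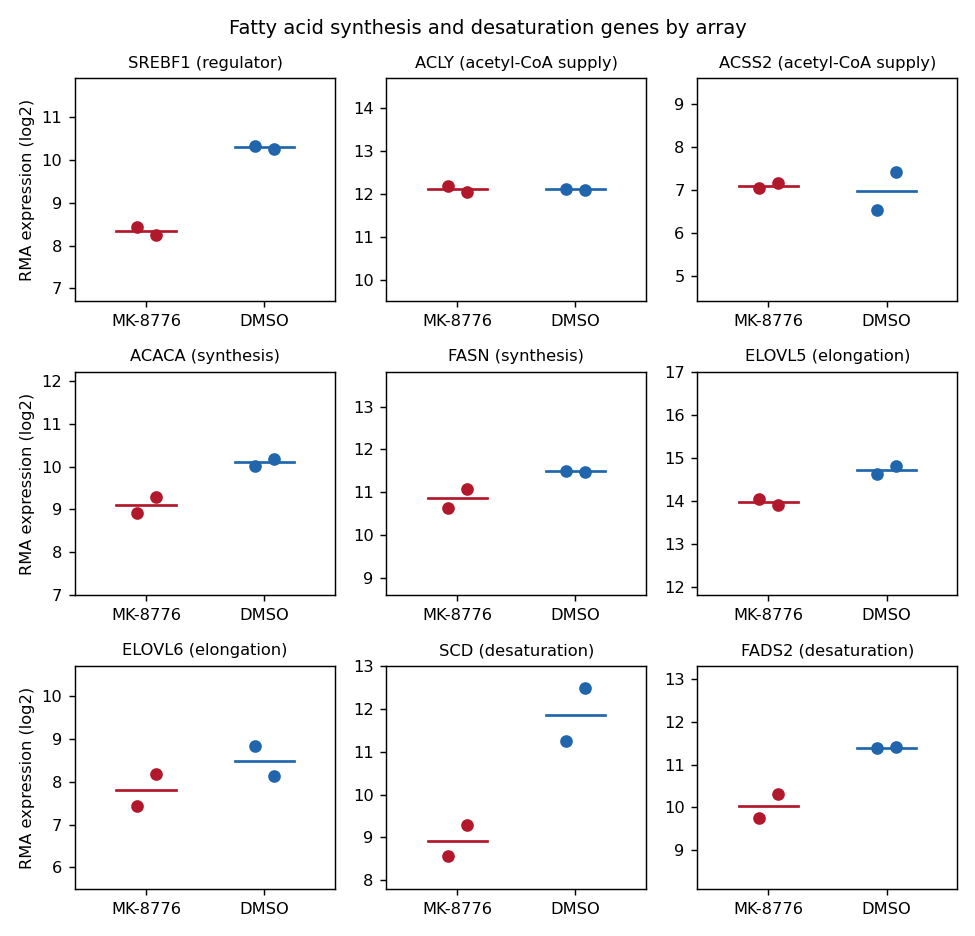
RMA expression (log2) of the 9 measured genes on each array, with MK-8776 left of DMSO in every panel. Points are arrays and lines are means of 2 arrays, and each panel spans the same number of log2 units. The groups stand apart in 6 panels and overlap in those of ACLY, ACSS2 and ELOVL6.

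SREBF1 (feature TC1700009949.hg.1, chromosome 17, 17811334 to 17836986, GRCh38.p14) measured 8.43 and 8.25 in MK-8776, against 10.33 and 10.26 in DMSO. Both MK-8776 arrays lay far below both DMSO arrays, and the arrays of a group differed by 0.18 in MK-8776 and 0.07 in DMSO. The change was -1.96 (SE 0.21, 95% interval -2.43 to -1.48, limma adjusted p = 0.00414), and 46 genes of the array had a larger fall. The annotation pairs this feature with 2 RefSeq transcripts, so the SREBP-1 isoforms, which arise from different first exons, were read as 1 value. The microRNA miR-33b, known to repress genes of cholesterol export and fatty acid oxidation, is encoded within SREBF1 (chr17:17813897-17813916, minus strand), and its mature sequence is given with the seed, bases 2 to 8, in capitals. Its own level was not analysed here.
hsa-miR-33b-5p: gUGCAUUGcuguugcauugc

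Neither gene of acetyl-CoA supply passed the test, and both had overlapping groups. ACLY, which cleaves exported citrate to acetyl-CoA, measured 12.18 and 12.05 in MK-8776 and 12.13 and 12.09 in DMSO. Its groups overlapped within 0.13, and the 95% interval of its change ran from -0.46 to 0.47. A change of up to about that size in either direction is therefore not excluded. ACSS2, which makes acetyl-CoA from acetate, measured 7.05 and 7.15 in MK-8776 and 6.52 and 7.42 in DMSO. Here both MK-8776 arrays fell between the DMSO arrays, which differed by 0.90. The interval was wider (-0.56 to 0.82), and the change of 0.13 turned to -0.32 without DMSO replicate 1 and was 0.58 without DMSO replicate 2. No statement on ACSS2 beyond that range can be made from 2 arrays a group.

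Both genes of the synthesis steps were lower in MK-8776 and neither passed. ACACA, the acetyl-CoA carboxylase that makes malonyl-CoA, measured 8.92 and 9.30 in MK-8776 and 10.02 and 10.17 in DMSO. The groups did not overlap, with MK-8776 at 50.5% of the DMSO level (change -0.99, SE 0.22, limma adjusted p = 0.0538). This gene just missed the threshold. It passed with a variance trend (0.0222) and when only genes above the median level were tested (0.0298). It did not pass with quantile normalization (0.0629) or with all features tested (0.0647). The trend and the filter called more of all genes, 1185 of 17687 and 981 of 8841, against 652 of 17687 in the main fit. The same limit holds for each gene below that passed only with either of them. FASN, fatty acid synthase, measured 10.64 and 11.08 in MK-8776 and 11.49 and 11.48 in DMSO. The DMSO arrays were 0.01 apart while the MK-8776 arrays were 0.44 apart, and the change was -0.63 (95% interval -1.15 to -0.10, limma adjusted p = 0.186). Leaving out MK-8776 replicate 1 made it -0.41 and leaving out MK-8776 replicate 2 made it -0.85.

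The elongases had changes of similar size and unlike spread. ELOVL5, which lengthens polyunsaturated acyl chains, measured 14.04 and 13.91 in MK-8776 and 14.63 and 14.82 in DMSO. The arrays of a group agreed within 0.19, the groups did not overlap, and the change was -0.75 (SE 0.21, limma adjusted p = 0.0964). It passed with a variance trend (0.00737) and among genes above the median level (0.0494). ELOVL6, which extends palmitate to stearate and so makes the main substrate of SCD, measured 7.43 and 8.17 in MK-8776 and 8.84 and 8.13 in DMSO. MK-8776 replicate 2 lay above DMSO replicate 2, so the groups overlapped. Its change of -0.69 (SE 0.32, limma adjusted p = 0.301) became -0.32 when MK-8776 replicate 1 was left out and -1.06 when MK-8776 replicate 2 was.

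Both measured desaturase genes fell. SCD, stearoyl-CoA desaturase, which places the first double bond in stearate and palmitate (feature TC1000008643.hg.1, chromosome 10, 100347233 to 100364826), measured 8.56 and 9.28 in MK-8776, against 11.24 and 12.49 in DMSO. The MK-8776 arrays differed by 0.72 and the DMSO arrays by 1.25, the widest DMSO gap among the 9 genes, yet the lowest DMSO value stood above the highest MK-8776 value. The change was -2.95 (SE 0.41, 95% interval -3.88 to -2.01, limma adjusted p = 0.00988), and 2 genes of the 17687 had a larger fall. FADS2, the delta-6 desaturase that starts the conversion of essential fatty acids to longer polyunsaturated ones (feature TC1100013022.hg.1, chromosome 11, 61816203 to 61867354), measured 9.75 and 10.31 in MK-8776, against 11.38 and 11.41 in DMSO. The DMSO arrays were 0.03 apart and the MK-8776 arrays 0.56, with no overlap between groups. FADS2 stood at 38.8% of its DMSO level (change -1.37, SE 0.24, limma adjusted p = 0.0247).

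**Figure D2:**
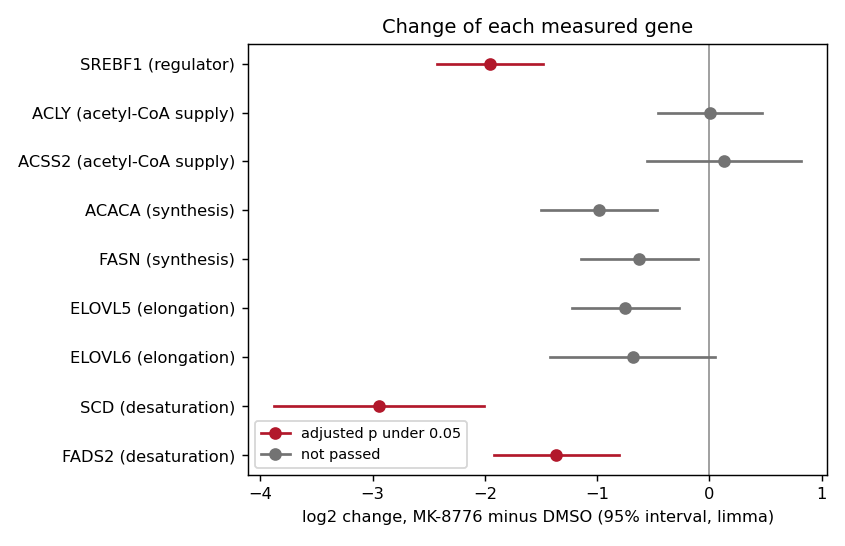
Log2 change, MK-8776 minus DMSO, of the 9 measured genes with the 95% interval of the limma fit, ordered by step of the pathway. The intervals of SREBF1, SCD and FADS2, in red, end at -0.81 or lower, and those of ACLY, ACSS2 and ELOVL6 span 0.

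In total 6 of the 9 genes had both MK-8776 arrays below both DMSO arrays, and 0 had the reverse. Among all genes 48.2% showed no overlap between the groups and 24.2% were lower in this sense. Without the adjustment 6 of the 9 had a p under 0.05, beside 3331 of the 17687 genes. Between the arrays of a group the members differed in both directions by sign. In MK-8776, replicate 2 was above replicate 1 for 6 genes and below it for 3, with differences from -0.18 to 0.74. The larger ones were all positive: ACACA 0.38, FASN 0.44, FADS2 0.56, SCD 0.72 and ELOVL6 0.74. The mean level of the 9 genes was 9.67 on MK-8776 replicate 1 and 9.94 on MK-8776 replicate 2. In DMSO, replicate 2 was above replicate 1 for 5 genes and below it for 4, with differences from -0.71 to 1.25. The mean levels there were 10.73 and 10.92. The median difference between the arrays of a group was 0.38 in MK-8776 and 0.15 in DMSO over the 9 genes, beside 0.24 and 0.23 over all genes.

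**Figure D3:**
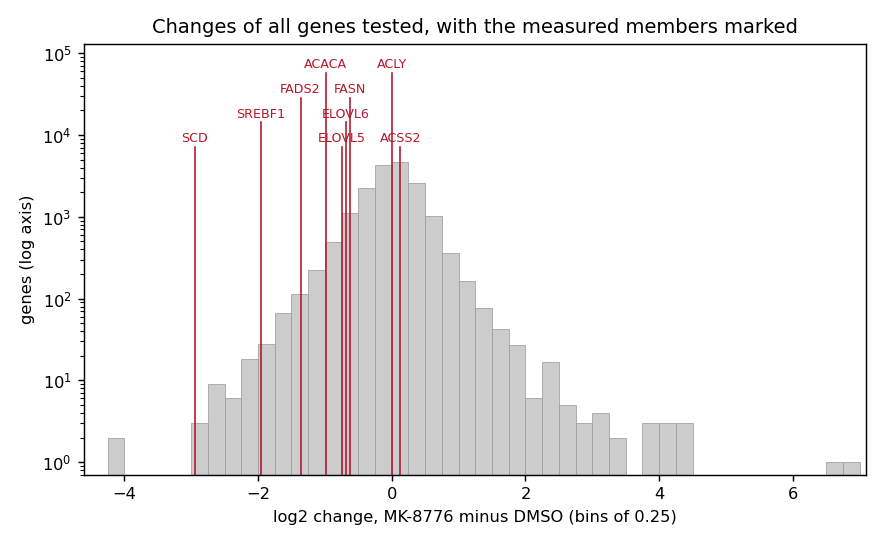
Number of genes (log axis) by log2 change, MK-8776 minus DMSO, in bins of 0.25, over all 17687 genes tested. Red lines mark the 9 measured genes, with SCD at -2.95 and SREBF1 at -1.96 in the lower tail and ACLY and ACSS2 near the centre.

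The calls rest on all 4 arrays. With any 1 array left out, 0 of the 9 genes passed, and 0 to 34 of all genes did. The called changes kept their direction: SREBF1 ranged from -2.05 to -1.87, FADS2 from -1.65 to -1.09 and SCD from -3.57 without DMSO replicate 1 to -2.32 without DMSO replicate 2. Their adjusted p in these fits ran from 0.0773 for SREBF1 without MK-8776 replicate 2 to 0.407 for FADS2 without DMSO replicate 2.

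**Figure D4:**
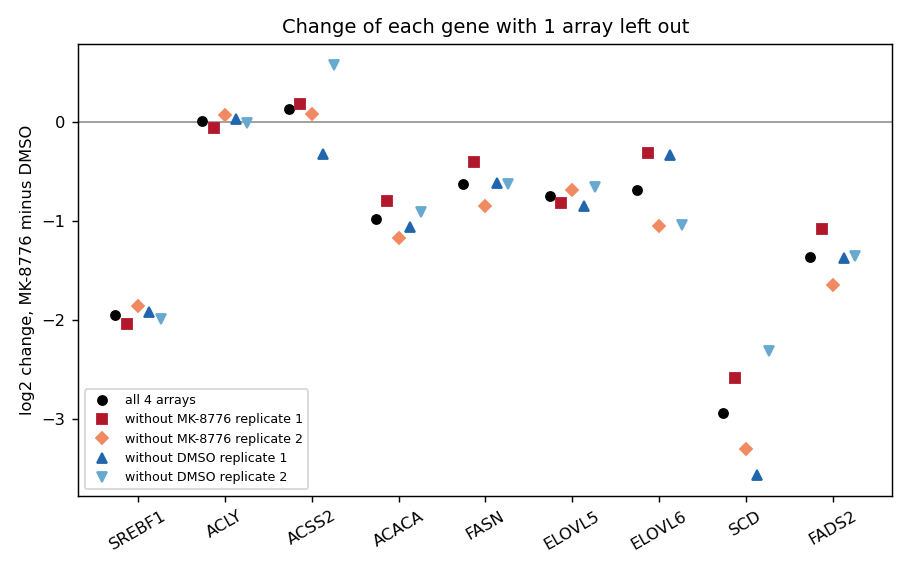
Log2 change, MK-8776 minus DMSO, of each measured gene with all 4 arrays (black) and with 1 array left out (other symbols). SREBF1 stays between -2.05 and -1.87, SCD spreads from -3.57 to -2.32, and ACLY and ACSS2 lie on both sides of 0.

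Genes around the pathway were described from 8 further lists, 105 measured genes in all, of which 6 rose, 3 fell and 96 did not pass. Their median change was -0.03, and 1.66% of all genes rose. Of 9 measured genes that process or turn over SREBP, ERLIN1 fell by 1.19 on the log2 scale and 8 did not pass, with a list median of -0.04. ERLIN1, a membrane protein of the endoplasmic reticulum that holds SREBP complexes there, measured 11.14 and 11.69 in MK-8776 and 12.39 and 12.81 in DMSO (limma adjusted p = 0.0493). It missed the threshold with all features tested (0.0600) and, narrowly, with the lowest-mean feature of each gene. SREBF2, the paralogous factor of cholesterol genes, and INSIG1, which retains the SCAP complex, both had changes of -0.73 (limma adjusted p = 0.109 and 0.101). SCAP itself measured 10.97 and 10.56 in MK-8776 and 10.41 and 10.53 in DMSO.

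Of 14 genes in a list made up mainly of transcription partners of lipogenic genes, 0 passed by limma, and 4 had a p under 0.05 before adjustment. NFYA, a subunit gene of the CCAAT-binding factor NF-Y, had a change of -0.87 (limma adjusted p = 0.101). Its mean was 8.75 ± 0.35 in MK-8776 and 9.62 ± 0.20 in DMSO (SD, n = 2 each). The other NF-Y subunit genes had changes of opposite sign, 0.335 for NFYB and 0.355 for NFYC (limma adjusted p = 0.44 and 0.441). MID1IP1, whose product promotes the assembly of acetyl-CoA carboxylase, had a change of -0.77 (limma adjusted p = 0.0858), and it passed with a variance trend (0.0442) or a filter at the median level (0.0430). The median of this list was -0.13.

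Of 6 measured genes of citrate and NADPH supply, 2 rose and 0 fell, with a median of 0.28. ME1, the cytosolic malic enzyme that yields NADPH, measured 12.25 and 11.75 in MK-8776, against 9.81 and 9.53 in DMSO. Its rise of 2.33 (SE 0.25, limma adjusted p = 0.00414) was opposite in sign to the change of SREBF1. PGD, an NADPH-forming enzyme of the pentose phosphate pathway, measured 12.33 and 11.70 in MK-8776 and 10.56 and 10.54 in DMSO, a rise of 1.47 (limma adjusted p = 0.0231). SLC25A1, the mitochondrial citrate carrier, had 6.22 and 5.78 in MK-8776 and 5.54 and 6.73 in DMSO, with overlapping groups.

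The other enzymes of synthesis, elongation and desaturation gave 0 calls of 18 by limma, with 2 genes at a p under 0.05 before adjustment and a median of -0.08. The largest changes were 0.77 for DEGS1, the ceramide desaturase gene, and 0.56 for FADS3, a relative of FADS2, which measured 8.41 and 8.60 in MK-8776 and 7.78 and 8.11 in DMSO (limma adjusted p = 0.116 and 0.221). DEGS1 passed with a variance trend (0.0348). SCD5, the second human stearoyl-CoA desaturase gene, measured 2.69 and 2.98 in MK-8776 and 3.20 and 3.07 in DMSO. No array gave it a value above 3.97, the lower quartile of the whole table, so its signal was near the bottom of the array's range.

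Among 14 genes of fatty acid uptake and activation, CD36 rose and 13 did not pass, with a median of -0.07. CD36, a membrane receptor that takes up long-chain fatty acids, measured 7.05 and 7.48 in MK-8776, against 5.45 and 4.94 in DMSO (change 2.07, SE 0.26, limma adjusted p = 0.00744). Of 12 genes of phospholipid synthesis and remodelling, most of them acyltransferase genes, 1 rose and 1 fell, with a median of 0.03. MBOAT7, which attaches arachidonate to lysophosphatidylinositol, rose by 1.35 (limma adjusted p = 0.0197). AGPAT5, an acyltransferase gene of phosphatidic acid synthesis, changed by -1.07 (limma adjusted p = 0.0315). The 23 measured genes of fatty acid oxidation gave 2 rises and 1 fall and a median of 0.11. SLC25A20, the carnitine carrier of mitochondria, rose by 1.26, ACAA2, the thiolase that ends each round of oxidation, rose by 1.11, and HADH, a dehydrogenase of the preceding step, changed by -1.13 (limma adjusted p = 0.0278, 0.0296 and 0.0315). AMP-activated kinase inhibits acetyl-CoA carboxylase, and of 9 genes of its list 0 passed by limma (3 had a p under 0.05 before adjustment). Their median change was 0.17, with 7 genes higher and 2 lower in MK-8776. The lower genes, which had the largest changes of the list, were CAMKK2 and PRKAB2. CAMKK2, an activating kinase, had a change of -1.20 (limma adjusted p = 0.0734). It passed with a variance trend (0.0292) or a filter at the median level (0.0464). The subunit gene PRKAB2 had a change of -0.90 (limma adjusted p = 0.116), which was -0.58 without DMSO replicate 2 and -1.22 without DMSO replicate 1. Another subunit gene, PRKAB1, had a change of 0.67 (limma adjusted p = 0.146).

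**Figure D5:**
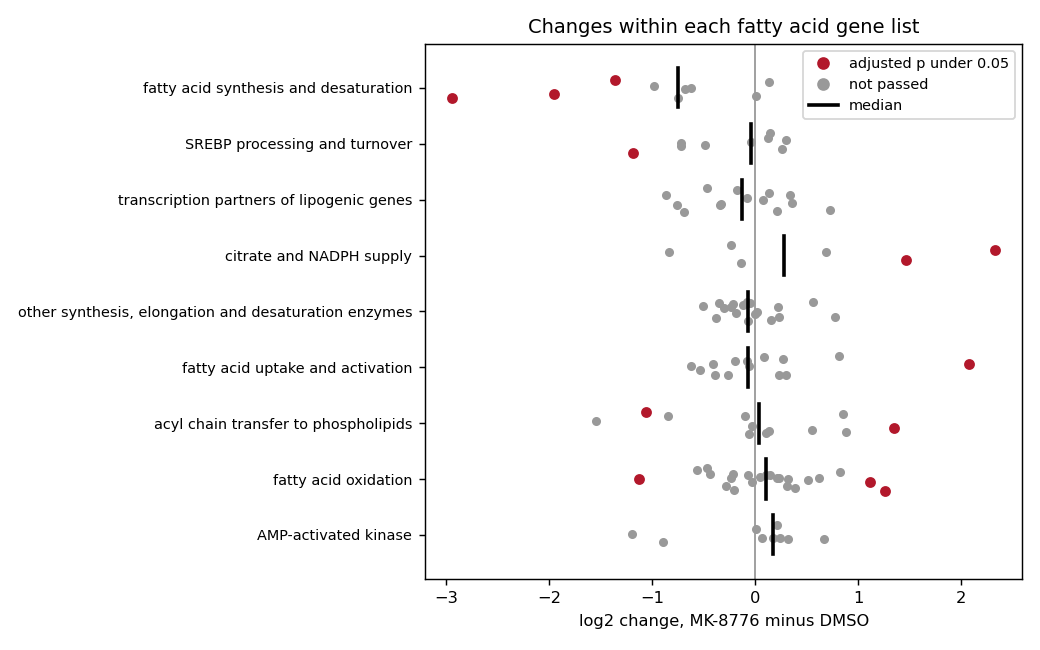
Log2 change, MK-8776 minus DMSO, of each gene (points, spread vertically for legibility) in the fatty acid synthesis and desaturation list and in 8 lists of neighbouring steps, with medians as black bars. The median is -0.75 in the first list and lies between -0.13 and 0.28 in the others.

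Other readings of the cells were taken from the same arrays. CHEK1, the gene of the drug's target kinase, had a change of -0.81 (limma adjusted p = 0.0883), which passed with a variance trend (0.0333) or a filter at the median level (0.0469) and does not measure kinase activity. Of 5 measured promyelocyte markers 2 fell, CTSG and PRTN3, and the list's mean level was 7.40 and 7.97 in MK-8776 and 8.74 and 9.37 in DMSO. MPO, the abundant granule enzyme of promyelocytes, measured 14.81 and 15.36 in MK-8776 and 16.09 and 16.27 in DMSO. The highest value of any feature, with or without a gene symbol, was 18.54. MPO did not pass (change -1.095, limma adjusted p = 0.0514). Of 6 macrophage markers 2 rose, C1QA and CD14, the latter narrowly (limma adjusted p = 0.0491). By sign 4 of the 6 were higher and 2 lower in MK-8776, the lower ones C1QB (change -0.005) and CSF1R (-0.175). The list's mean level was 5.94 and 6.06 in MK-8776 and 5.33 and 5.39 in DMSO. Lymphoid markers and markers of erythroid cells and megakaryocytes had 1 rise and 1 fall each of 6, and those of eosinophils, basophils and mast cells 0 calls of 6 by limma (2 had a p under 0.05 before adjustment). Among the lymphoid markers NKG7 rose by 1.23 and CD3E changed by -1.38. The B cell gene CD79A measured 9.47 and 9.75 in MK-8776 and 9.73 and 9.65 in DMSO, whereas MS4A1 and CD3G, further B and T cell genes, lay under 3.97 on all 4 arrays. The called markers were named after their values were seen, and the part of these shifts in the changes of the fatty acid genes was not tested.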

How the data were processed

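RNA of NB4-R4 cells was hybridised to 4 Affymetrix arrays, 2 of cells given MK-8776 and 2 of cells given DMSO. The deposited log2 values were made by the authors with RMA against build hg38, per the submitters' processing notes. No source used here gives the RMA settings, scanner or filters. A log2 scale was inferred from the range of the values, 2.16 to 18.54. RMA makes arrays alike in distribution, so changes are relative to the other genes. No scan date or batch is given.

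Of 21448 features, 17709 had exactly 1 gene symbol, giving 17687 genes. They were tested with limma 3.58.1 in R 4.3.3 (lmFit, eBayes, two-sided), with no filter and with Benjamini-Hochberg adjustment at 0.05. The fit was tested on simulated data. Replicates are described as biological, with no word on separate cultures, so p-values cover the spread between these 4 arrays, which may be partly technical. Their number limits the precision: an exact permutation test of 2 against 2 cannot go below p = 0.333 (two-sided).

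The members and lists were chosen with earlier results of these data known. Named are all members, CHEK1 and, of each pathway list, up to 4 called genes or, with none called, the 2 with the largest change. Some list genes named for their role (SREBF2, INSIG1, SCAP, NFYB, NFYC, SLC25A1, SCD5, PRKAB1) were chosen after their values were seen. Alternatives were quantile normalization, median centring, a level filter, a variance trend, all features, the lowest-mean feature per gene, a replicate block and leaving out each array. Coordinates and sequences are RefSeq's (GRCh38.p14).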

Additional observations from a re-analysis of the deposited data

How the results depend on the processing

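The number of genes called, 652 of 17687, was 981 of 8841 when only genes above the median level were tested. It was 1185 with a variance trend and 309 with the replicate number as a block. The number of members called, 3, was 5 with the level filter and 5 with the variance trend. Leaving out 1 array gave 0 to 34 called genes and 0 to 0 called members, with 1815 to 3017 genes at a p under 0.05 before adjustment. Those fits also had fewer arrays, and the cause of these shifts was not tested. Quantile normalization, median centring, all features and the lowest-mean feature per gene each left 3 members called. Among the 9 members the direction turned only for ACLY, at -0.015 without DMSO replicate 2 and -0.06 without MK-8776 replicate 1 (range up to 0.07), and for ACSS2, at -0.32 without DMSO replicate 1 (range up to 0.58).

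Arrays numbered 1 and 2 exist in each group, with no shared culture or day named for a number. Deviations of same-numbered arrays from their group means correlated at 0.139 across genes, which are not independent. With the replicate block 2 members stayed called, SCD and SREBF1, and FADS2 had a limma adjusted p of 0.0580. Of the other named genes called, ME1 and CD36 passed with the block, while ERLIN1 (0.0564), PGD (0.0562), MBOAT7 (0.0580), AGPAT5 (0.0677), SLC25A20 (0.0612), ACAA2 (0.0618) and HADH (0.0613) did not. With 2 arrays a group and no scanner files used here, signal over background was not measured, so the lack of a call in dim genes such as SCD5 says little.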
